A study of Anopheles gambiae with 9 samples.

Results

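The ears of intersex mosquitoes were compared with those of control females of the same karyotype. The pedicel is the antennal segment that holds the Johnston's organ, the auditory organ of the malaria mosquito Anopheles gambiae, and RNA from pools of pedicels was sequenced. The tested group was dsxF-/- XX, genetic females in which the female isoform of doublesex is disrupted and which develop as intersexes. The reference was dsxF+/+ XX, females of the G3 strain. Each group had 3 libraries that the study calls biological repeats, so 6 of the 9 libraries of the series were compared. The 3 dsxF+/+ XY male libraries entered the same fit, and so its filter, scaling and estimate of the spread. They were not part of the comparison, and male levels are given for some transcripts only. All mosquitoes were young adults that had been entrained to a light/dark cycle. Pupae of the dsxF+/+ groups were separated by sex, whereas dsxF-/- pupae were not. Strain background, rearing and the loss of DsxF therefore differ together between the groups and cannot be told apart.

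Sex in mosquitoes is set by a cascade that ends in doublesex, a transcription factor gene whose transcript is spliced into a female form (DsxF) and a male form (DsxM). XX adults without DsxF carry a mixture of male and female traits, whereas XY males do not depend on it. The Johnston's organ is built of sensory cells whose ciliated endings attach to the base of the flagellum, and in males it holds far more of these cells and can produce self-sustained vibrations. Sensory cilia of insect hearing organs carry axonemal dynein motors, and their upkeep depends on intraflagellar transport, the movement of cargo along the microtubules of the cilium.

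Of 16066 transcripts in the table, 12379 had enough counts to be tested. In dsxF-/- XX pedicels 517 transcripts were higher (4.18% of those tested) and 851 were lower (6.87%) than in dsxF+/+ XX pedicels, by edgeR's quasi-likelihood test. A transcript is termed called where its Benjamini-Hochberg adjusted p was below 0.05. The groups did not overlap for any called transcript, but this was also so for 13.4% (intersex above) and 17.4% (intersex below) of all transcripts tested. The falls were larger than the rises, with a median fold of 3.11 against 2.33, and 745 of the called falls and 351 of the called rises passed 2-fold. A change of over 10-fold was found for 63 of the falls and 37 of the rises, which were similar shares (7.4% and 7.16%). The median log2 fold change of all transcripts tested was 0.00. Among transcripts over 100 CPM (counts scaled to a common library size) 8.72% were called higher and 7.78% lower, and among those at 1 to 10 CPM 2.26% were called higher and 5.95% lower. In bulk tissue, more cells of a type and more RNA per cell cannot be told apart.

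**Figure D1:**
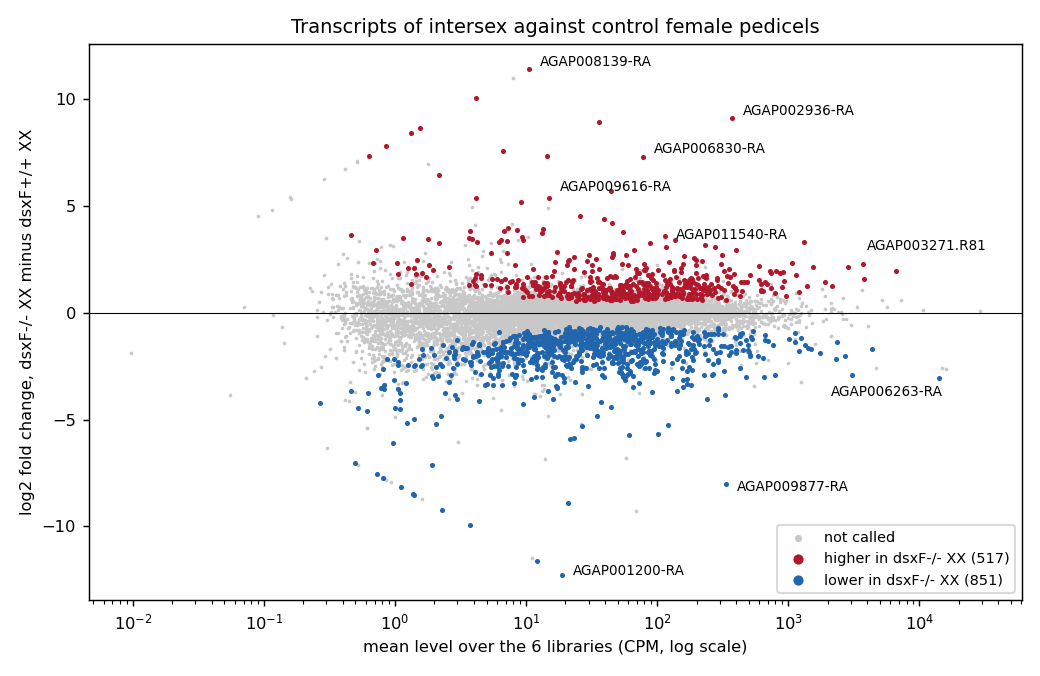
Each point is a transcript, placed by its mean level over the 6 libraries (CPM, log axis) and its log2 fold change, dsxF-/- XX minus dsxF+/+ XX. The 517 called rises (red) and 851 called falls (blue) lie on both sides of a grey band centred on 0.00, with AGAP002936-RA as the rise that is both large and abundant and AGAP009877-RA as the matching fall.

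The called rises held 13.2%, 13.2% and 13.6% of the normalized counts in the dsxF-/- XX libraries, against 4.52%, 5.05% and 3.64% in the dsxF+/+ XX libraries. The called falls held 4.17%, 4.78% and 4.65% in dsxF-/- XX, against 15.5%, 11.5% and 16.9% in dsxF+/+ XX. These shares describe transcripts that were chosen for their difference. The 6 libraries held between 14177255 (dsxF-/- XX replicate 1) and 17477058 (dsxF-/- XX replicate 2) estimated counts. The leading 10 transcripts of dsxF+/+ XX replicate 3 accounted for 23.6% of its total, which compares with 8.95% to 11.2% in the other 5 libraries. The dsxF+/+ XX replicate 2 library stood nearer to the intersex libraries than the other females did: its level was the closest of the 3 female libraries to the intersex group for 53.6% of the called rises and 58.3% of the called falls, and across transcripts its log2 CPM correlated with the 3 intersex libraries at r = 0.914, 0.908 and 0.898, and with dsxF+/+ XX replicates 1 and 3 at 0.900 and 0.928. Without that library 914 transcripts were called higher and 1002 lower. Leaving out any other library lowered the counts. With dsxF-/- XX replicate 1 left out, 223 transcripts were called higher and 244 lower, with replicate 2 left out 300 and 460, and with replicate 3 left out 244 and 301. With dsxF+/+ XX replicate 1 left out the counts were 335 and 530, and with its replicate 3 left out 224 and 350. None of the 1368 called transcripts turned its direction in these 6 fits.

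**Figure D2:**
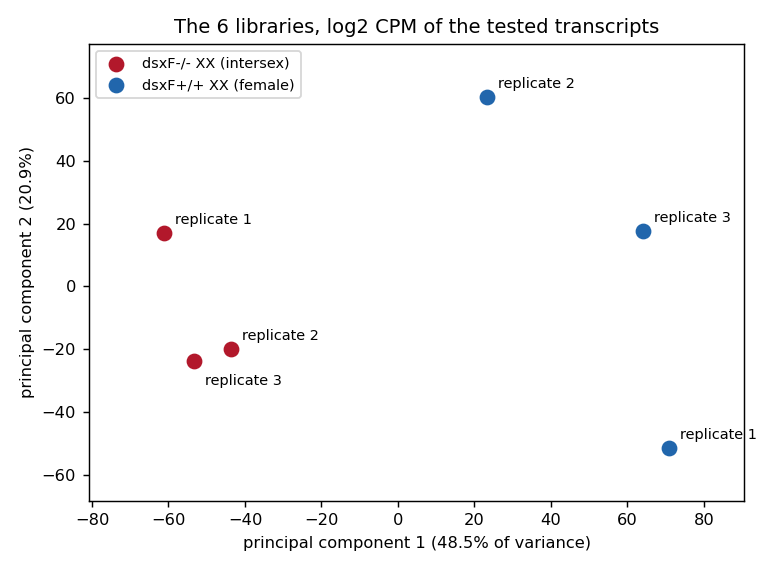
The 6 libraries are placed by the first principal components of their log2 CPM, with dsxF-/- XX in red and dsxF+/+ XX in blue. The first component, with 48.5% of the variance, separates the groups, and dsxF+/+ XX replicate 2 has the female score nearest to the intersex libraries.

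Several transcripts were close to absent from control females and abundant in intersexes. The unnamed AGAP002936-RA had 13526, 10924 and 11661 normalized counts in dsxF-/- XX, against 12.8, 19.9 and 33.3 in dsxF+/+ XX (log2 fold change 9.11, standard error 0.38, adjusted p = 1.37e-05 from edgeR). AGAP010195-RA had 203.9, 227.0 and 216.6 in dsxF-/- XX, against 0.91, 0.00 and 2.3 in dsxF+/+ XX (log2 fold change 7.58, standard error 0.55). AGAP029439-RA had 1462, 1106 and 1676 in dsxF-/- XX, against 27.4, 18.9 and 34.5 in dsxF+/+ XX (5.72, standard error 0.34). In all 3 the lowest intersex library exceeded the highest female library many times over, and each stayed called when any library of the 6 was left out. AGAP008139-RA had 340.5, 396.1 and 281.3 in dsxF-/- XX and 0 counts in every dsxF+/+ XX library. Against a floor of 3 counts over the female group it was at least 339-fold higher. It was low in males too, at 14.7, 8.5 and 8.8, so that the intersex level lay above both controls.

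AGAP008139-RA was 1 of 6 called rises with 0 counts in all female libraries, and 10 called falls had 0 counts in all intersex libraries. The bounds of these folds ran from 20.4 to 339 for the rises and reached 615 for the falls, and the floor covers counting error only. Only 2 of these rises (AGAP008139-RA and AGAP012487-RA) and 4 of these falls (AGAP001200-RA, AGAP004107-RB, AGAP005054-RB and AGAP010476-RA) kept the call in each of the 6 fits that left out 1 library. AGAP028159-RA, named here after its values were seen, had 17.9, 21.0 and 22.2 in dsxF-/- XX and 0 in every male and every female library. Its call was lost without any of the 3 intersex libraries (adjusted p up to 0.0734 over the 6 edgeR fits). AGAP003073-RA and AGAP013146-RB, also chosen after their values were seen, lost theirs in each of the 6 fits.

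Of 12 transcripts with a dynein name, 6 were called higher in intersex pedicels and 6 were not called, beside 4.18% of all transcripts tested called higher. The names come from a list that the study chose on these same libraries, for most dyneins by this contrast. Their count is therefore a description only. Axonemal dyneins are the motors that bend motile cilia. The transcript of dynein intermediate chain 2, axonemal (AGAP011540-RA), which links the motor to its microtubule, had 3241, 3840 and 3032 normalized counts in dsxF-/- XX, against 400.5, 402.3 and 370.1 in dsxF+/+ XX (log2 fold change 3.11, standard error 0.18, adjusted p = 7.59e-05 from edgeR). For dynein intermediate chain 1, axonemal, AGAP008689-RB had 3474, 3317 and 3219 in dsxF-/- XX, against 428.8, 888.9 and 590.8 in dsxF+/+ XX (2.39, standard error 0.28). Both pairs of groups were far apart, and dsxF+/+ XX replicate 2 was the highest female library for each. The transcript of dynein assembly factor 1 (AGAP009594-RA), which prepares dynein arms in the cytoplasm, had 26212, 34555 and 26782 in dsxF-/- XX, against 5749, 6083 and 5427 in dsxF+/+ XX (2.34, standard error 0.19). Tctex1 domain-containing protein 2-like (AGAP009318-RA), of a family of dynein light chains, had 3943, 4578 and 4187 in dsxF-/- XX, against 894.2, 932.5 and 743.7 in dsxF+/+ XX (2.31, standard error 0.18). These 4 stayed called without any of the libraries. Protein kintoun (AGAP005250-RA), another assembly factor, rose less, by a log2 fold change of 0.73 (standard error 0.15), as did dynein light chain 1 (AGAP004416-RA, 0.83, standard error 0.18) and dynein light intermediate chain 2 (AGAP010165-RA, 0.81, standard error 0.18). Of the dynein heavy chains, AGAP011441-RA rose by 2.40 (standard error 0.51), whereas AGAP009568-RA, at 1.54 (standard error 0.49, adjusted p = 0.0734), did not pass. The calls of kintoun, light chain 1, light intermediate chain 2 and heavy chain AGAP011441-RA were lost without dsxF-/- XX replicate 1, dsxF-/- XX replicate 3 or dsxF+/+ XX replicate 3 (for light chain 1 and light intermediate chain 2 also without dsxF-/- XX replicate 2), with an adjusted p of up to 0.0824, 0.0831, 0.0932 and 0.069 in the order given.

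Dyneins were also counted as gene sums, the summed transcripts of a gene, over a list of genes given by the study as expressed in male pedicels and testes, a choice that used libraries of this series. The list held 38 genes. Of 10479 gene sums tested, 529 (5.05%) were higher and 985 (9.4%) lower in dsxF-/- XX. Of the 33 dynein genes tested, 15 rose, 0 fell and 18 were not called by edgeR (22 were higher and 0 lower at an unadjusted p under 0.05, and DESeq2 called 19 higher and 0 lower), and their median log2 fold change was 0.82, beside 0.00 over all gene sums. Fits that dropped 1 library called between 9 (no dsxF+/+ XX replicate 3) and 19 (no dsxF+/+ XX replicate 2) of them higher. AGAP003271, a gene of this list, was among the most abundant rises. Its transcript (AGAP003271.R81) had 112810, 81244 and 105408 normalized counts in dsxF-/- XX, against 13256, 33690 and 14666 in dsxF+/+ XX (log2 fold change 2.28, standard error 0.39, adjusted p = 0.00834 from edgeR). AGAP010435, also of the list, had 91052, 68432 and 66757 for its transcript AGAP010435.R331 in dsxF-/- XX, against 12381, 27413 and 11610 in dsxF+/+ XX (2.14, standard error 0.46). For both, dsxF+/+ XX replicate 2 was the highest female library and still lay below every intersex library. The call of AGAP010435.R331 was lost without dsxF-/- XX replicates 1 or 3 or dsxF+/+ XX replicates 1 or 3 (adjusted p up to 0.0742). AGAP007597 of the same list had gene sums of 1416, 1319 and 1187 in dsxF-/- XX, against 166.8, 243.1 and 188.8 in dsxF+/+ XX (2.71, standard error 0.22). The members that were not called included AGAP001229 (gene sum log2 fold change -0.10), AGAP000723 (-0.01) and AGAP011690 (0.00), whose groups overlapped.

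The scaffold of the cilium gave rises of similar size. Tektins run along the wall of axonemal microtubules, and Tektin-3 (AGAP000219-RA) had 21877, 16835 and 27898 normalized counts in dsxF-/- XX, against 8732, 7942 and 7312 in dsxF+/+ XX (log2 fold change 1.47, standard error 0.23, adjusted p = 0.00503 from edgeR). Tektin-2 (AGAP008275-RA) had 380.8, 339.2 and 467.0 in dsxF-/- XX, against 128.9, 108.9 and 121.8 in dsxF+/+ XX (1.72, standard error 0.20). Piercer of microtubule wall 1 (AGAP013430-RA), which sits inside the doublet microtubule, had 171.4, 474.1 and 204.0 in dsxF-/- XX, against 27.4, 32.2 and 20.7 in dsxF+/+ XX (3.39, standard error 0.46). Its level in dsxF-/- XX replicate 2 was above that of the other intersex libraries. The 2 transcripts annotated as stabilizer of axonemal microtubules 1-like rose by 2.05 (AGAP003120-RA, standard error 0.26) and 1.95 (AGAP012726-RA, standard error 0.29). Meckelin-like (AGAP002548-RA), whose relatives act in the ciliary transition zone, the gate at the base of the cilium, had 5172, 7145 and 5479 in dsxF-/- XX, against 1411, 2062 and 1744 in dsxF+/+ XX (1.77, standard error 0.22). NompB (AGAP006324-RA), an intraflagellar transport gene, rose by 1.05 (standard error 0.18) at an adjusted p of 0.00931 in edgeR. All of these calls held without any of the libraries. That of alpha tubulin (AGAP010971-RA, 1.25, standard error 0.34, adjusted p = 0.047 from edgeR) was lost in each of the 6 fits that left out 1 library.

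Further ciliary transcripts were found through Gene Ontology terms, which the study's tables attach to transcripts higher in male than in female pedicels in both G3 and a second strain. The G3 females of that choice are the libraries compared here, so the direction of these lists is not independent of them and their counts are a description. Under the term ciliary basal body 14 of 15 transcripts were called higher in dsxF-/- XX (median log2 fold change 1.10), under ciliary transition zone 6 of 7 (1.19), under intraciliary transport particle 9 of 11 (1.15), under axoneme 18 of 25 (1.38) and under axonemal dynein complex 4 of 8 (1.95). Under DNA-templated DNA replication 6 of 26 were called higher (median 0.47), under histone binding 1 of 20 (0.46) and under ubiquitin protein ligase activity 1 of 26 (0.52), beside 4.18% of all transcripts tested. Differences between these lists were not tested. Of the 125 transcripts under these terms and those for axoneme assembly and cilium movement, 0 were called lower (0 also at an unadjusted p under 0.05 and by DESeq2). Axoneme assembly had 12 of 16 called higher (1.43) and cilium movement 11 of 17 (1.54). AGAP001429-RA, which carries the terms axoneme, basal body and intraciliary transport particle, had 6017, 6020 and 8350 normalized counts in dsxF-/- XX, against 897.9, 671.2 and 648.3 in dsxF+/+ XX (3.20, standard error 0.23, adjusted p = 1.82e-04 from edgeR). AGAP005468-RB of the transition zone had 5185, 3470 and 4833 in dsxF-/- XX, against 650.1, 1005 and 471.3 in dsxF+/+ XX (2.66, standard error 0.30). Both were clear of the female libraries in every intersex library. They were chosen after their values were seen, as was AGAP010787-RA, the replication transcript with the largest rise (2.23, standard error 0.18). The counts were lower without most libraries: basal body had 6 to 13 calls, transition zone 3 to 6, transport particle 3 to 8 and axoneme 11 to 19, with the highest count of each without dsxF+/+ XX replicate 2. The lowest counts of basal body and axoneme came without dsxF-/- XX replicates 1 or 3 or dsxF+/+ XX replicate 3, that of the transition zone without dsxF-/- XX replicate 1 and that of the transport particle without dsxF+/+ XX replicate 3. Axoneme assembly had 7 to 11 calls, with 7 without dsxF-/- XX replicates 1 or 3, and cilium movement 7 to 12, with 7 without dsxF-/- XX replicates 1 or 3 or dsxF+/+ XX replicate 3. DNA-templated DNA replication had 1 call without dsxF-/- XX replicates 1 or 3 and 2 without dsxF-/- XX replicate 2. It had 3, 6 and 2 calls in the fits that dropped dsxF+/+ XX replicates 1, 2 and 3. In the fit that dropped dsxF+/+ XX replicate 2 histone binding and ubiquitin protein ligase activity each had 7 calls, and histone binding had 0 in every other such fit.

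Microtubules are built of tubulin. The study's list of tubulin-related genes, also of genes expressed in male pedicels and testes, held 110 genes, of which 98 were tested as gene sums, 20 were higher, 6 were lower and 72 were not called, with a median log2 fold change of 0.42. All gene sums tested had 5.05% called higher and 9.4% called lower. The list overlaps the others: some of its rises, such as AGAP003271 and AGAP010435, were already counted among the dyneins. Kinesin genes named below (AGAP007592, AGAP002427 and AGAP000561) are also among its rises. The counts were 9 to 29 higher and 1 to 7 lower without each library in turn, of which 29 and 7 came without dsxF+/+ XX replicate 2. The 9 higher came from the fit that dropped dsxF+/+ XX replicate 3, and the 1 lower from the fit that dropped dsxF-/- XX replicate 1. AGAP000592 had gene sums of 16260, 14109 and 17523 in dsxF-/- XX, against 2661, 4657 and 3137 in dsxF+/+ XX (2.20, standard error 0.28, adjusted p = 0.00122 from edgeR). In the other direction AGAP008035 had 376.7, 322.7 and 549.7 in dsxF-/- XX, against 1043, 944.4 and 1433 in dsxF+/+ XX (-1.45, standard error 0.24), and its call held without any of the libraries. Both were chosen after their values were seen. Kinesins are motors that walk along microtubules. The study's list of names, chosen on these libraries, holds 6 transcripts with a kinesin name, 1 of them for a kinesin-associated protein. Of these 4 rose, beside 4.18% of all transcripts tested: AGAP007592-RA (1.38, standard error 0.32), kinesin family member 3/17 (AGAP002427-RA, 1.03, standard error 0.22), kinesin family member 5 (AGAP000561-RA, 0.83, standard error 0.18) and kinesin-associated protein (AGAP000187-RA, 0.68, standard error 0.18). Each lost its call without dsxF-/- XX replicate 1 or dsxF+/+ XX replicates 1 or 3, among others (adjusted p up to 0.0979, 0.0709, 0.0927 and 0.122, in that order, from edgeR). AGAP000159-RA (0.90, standard error 0.42) and AGAP000575-RA (0.87, standard error 0.82) were not called, and their groups overlapped. The 4 myosin transcripts, of actin-based motors, were not called by edgeR or DESeq2, with log2 fold changes of 0.50 to 0.86 (1 was higher at an unadjusted p under 0.05).

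Ion channels and receptors gave a few large rises and many small differences. Nanchung (AGAP012241-RA), a TRP channel subunit of chordotonal neurons that flies need for hearing, was present in every library. It had 2497, 3198 and 2967 normalized counts in dsxF-/- XX, against 1026, 1203 and 952.9 in dsxF+/+ XX (log2 fold change 1.44, standard error 0.18, adjusted p = 0.00208 from edgeR). PH-sensitive chloride channel 2 (AGAP009616-RA), an anion channel, had 478.3, 499.5 and 441.8 in dsxF-/- XX, against 18.3, 5.68 and 9.20 in dsxF+/+ XX (5.39, standard error 0.38), and the intersex libraries agreed closely with each other. Putative tachykinin receptor 1 (AGAP002824-RA), a neuropeptide receptor, had 547.7, 454.8 and 479.5 in dsxF-/- XX, against 31.1, 114.5 and 59.8 in dsxF+/+ XX (2.85, standard error 0.47). Males averaged 199.1 for this receptor, below the intersexes. These 3 calls held without any of the libraries. The next counts are also of the study's list, chosen on these libraries, and stand beside 4.18% of all transcripts tested called higher. Of the 33 named transcripts of channels, receptors and signalling, 8 rose, 0 fell (1 at an unadjusted p under 0.05 and 0 by DESeq2) and 25 were not called (median 0.79, 6 to 13 calls when each library was left out, 13 of them without dsxF+/+ XX replicate 2). Those not called included Piezo (AGAP009276-RB, 1.18, standard error 0.36, adjusted p = 0.067), a mechanically gated channel, Trpm (AGAP006825-RA, 0.19, standard error 0.37), the Shaker-related potassium channel (AGAP000254-RA, 0.59, standard error 0.47), the GABA-gated chloride channel Rdl (AGAP006028-RC, 0.40, standard error 0.64) and the NMDA receptor subunits (AGAP001478-RA, 0.53, standard error 0.26; AGAP005527-RA, 0.46, standard error 0.32). Putative metabotropic glutamate receptor 5 (AGAP005034-RA) had 40.3, 41.2 and 27.1 in dsxF-/- XX, against 45.7, 54.9 and 82.8 in dsxF+/+ XX, the only transcript with a name whose intersex libraries all lay below the females (-0.75, standard error 0.27, adjusted p = 0.112).

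**Figure D3:**
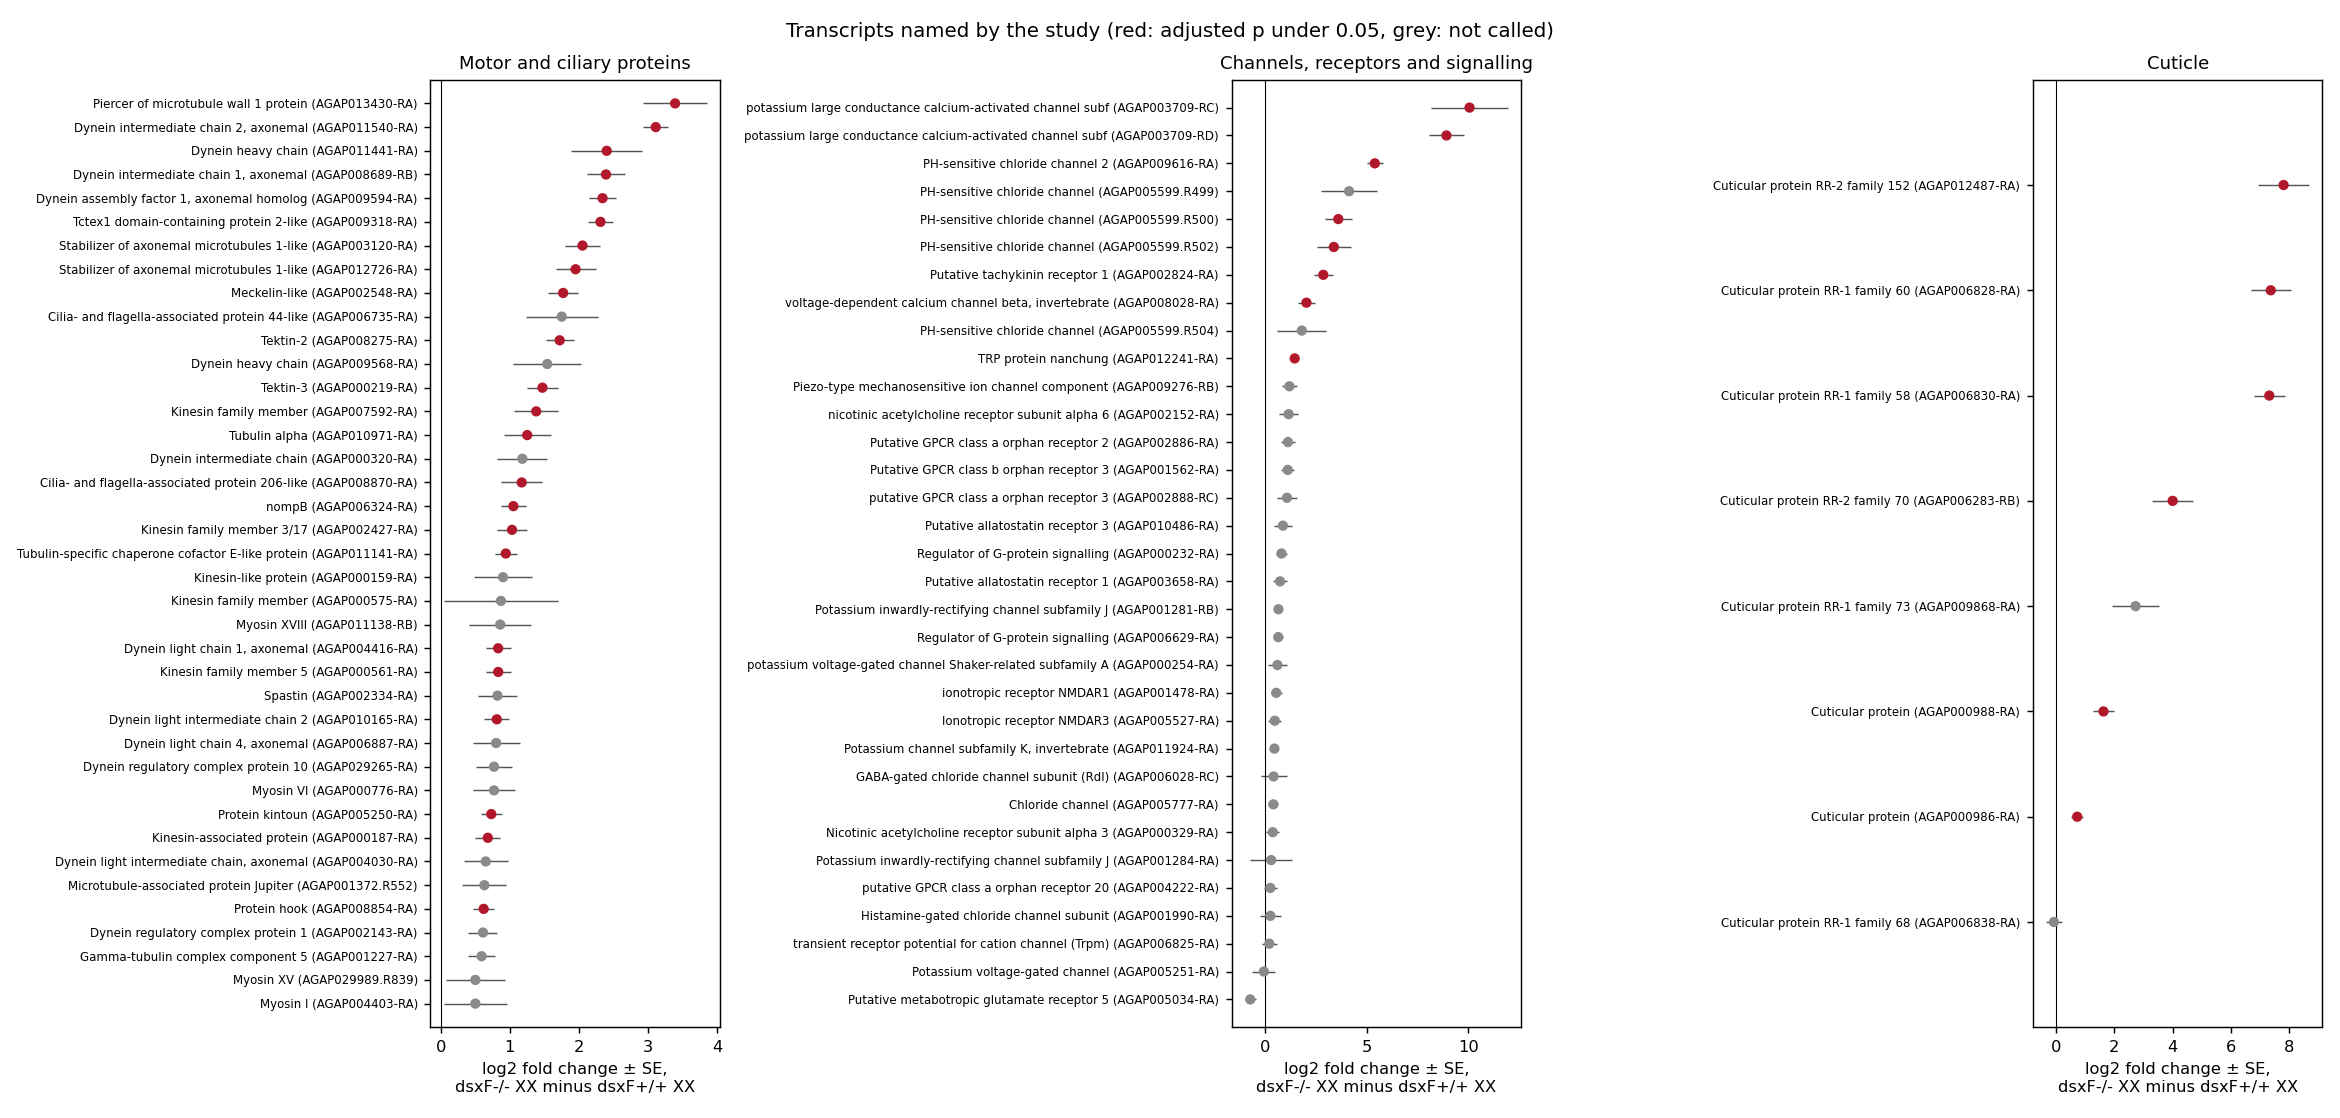
The 80 tested transcripts that the study lists by name are shown with their log2 fold change, dsxF-/- XX minus dsxF+/+ XX, and its standard error, in 3 groups with separate horizontal scales. Red points (37) passed an adjusted p under 0.05 and grey points (43) did not, and all red points lie above 0. The fitted values of AGAP003709-RC and AGAP012487-RA, at 0 in all females, depend on the prior count.

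The study chose this list on these same libraries, and for most of its transcripts by the very contrast described here, so its 37 rises among 80 tested transcripts (median log2 fold change 0.98) are not evidence of a direction. No transcript of the list was called lower by edgeR or DESeq2, and 1 was lower at an unadjusted p under 0.05. Of these 37, 21 were called in each fit without 1 library, and the total was 22 to 46, with 22 without dsxF-/- XX replicate 1 or dsxF+/+ XX replicate 3 and 46 without dsxF+/+ XX replicate 2. Of all transcripts tested 4.18% were called higher. By groups of names, 12 of 15 transcripts of axoneme and ciliary structure, 5 of 8 of tubulins and microtubule regulators, 6 of 11 of sodium, calcium and chloride channels, 2 of 7 of potassium channels, 1 of 3 of mechanosensory and TRP channels and 1 of 9 of neuropeptides and G protein-coupled receptors rose. These groups overlap. The 2 potassium channel rises (AGAP003709-RC and AGAP003709-RD), of a calcium-activated potassium channel, are also counted among the 6 of sodium, calcium and chloride channels. AGAP013430-RA, AGAP012726-RA and AGAP003120-RA are counted under both axoneme and tubulins. The 1 transcript of intraflagellar transport rose too. The 1 of chaperones (AGAP011141-RA, tubulin-specific chaperone cofactor E-like protein) also rose and is already among the 5 of tubulins and microtubule regulators. Of 7 neurotransmitter receptors 0 were called by edgeR or DESeq2 (1 higher and 1 lower at an unadjusted p under 0.05), and of 2 in the group of odorant, gustatory and ionotropic receptors (the NMDA receptor subunits, also counted before) 0 were called by either tool or passed an unadjusted p under 0.05.

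Some cuticular transcripts that the study names were among the largest rises. Cuticle genes without such a name could not be recognised here, whether they rose or fell. Cuticular proteins with an RR motif bind chitin in the exoskeleton. RR-1 family 58 (AGAP006830-RA) had 3603, 2468 and 1486 normalized counts in dsxF-/- XX, against 24.7, 9.47 and 12.6 in dsxF+/+ XX (log2 fold change 7.31, standard error 0.54, adjusted p = 1.82e-04 from edgeR). RR-1 family 60 (AGAP006828-RA) had 610.4, 356.7 and 437.9 in dsxF-/- XX, against 0.00, 1.89 and 6.90 in dsxF+/+ XX (7.36, standard error 0.68). Their identifiers are close in number, and the spread among the intersex libraries was wider than for the chloride channel above. RR-2 family 70 (AGAP006283-RB) had 169.1, 270.8 and 231.1 in dsxF-/- XX, against 23.8, 1.89 and 16.1 in dsxF+/+ XX (4.00, standard error 0.71). RR-2 family 152 (AGAP012487-RA) had 24.6, 31.6 and 27.1 in dsxF-/- XX and 0 in each dsxF+/+ XX library, at least 27.8-fold higher. Of 10 named cuticular transcripts 8 were tested and 6 rose, beside 4.18% of all transcripts tested. The study chose them on these same libraries, most of them by this contrast, so this count is a description only. RR-1 family 73 (AGAP009868-RA) was at 2.73 (standard error 0.80, adjusted p = 0.058), RR-1 family 68 (AGAP006838-RA) at -0.07, and the rises of AGAP000988-RA (1.63, standard error 0.37) and AGAP000986-RA (0.73, standard error 0.20) were lost without dsxF-/- XX replicates 1 or 3 or dsxF+/+ XX replicate 3, among others (adjusted p up to 0.0883 and 0.185). Near-identical copies are common in such families, and reads that fit several of them were divided by estimation.

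Most of the most abundant rises had no name. AGAP006977-RA had 168716, 195646 and 150345 normalized counts in dsxF-/- XX, against 55893, 40601 and 34784 in dsxF+/+ XX (log2 fold change 1.97, standard error 0.25, adjusted p = 0.00228 from edgeR). AGAP007160 had 3 rising transcripts, the larger of them AGAP007160-RB with 105813, 81429 and 91860 in dsxF-/- XX, against 33479, 34047 and 24994 in dsxF+/+ XX (1.59, standard error 0.20), and AGAP007160-RC with 62646, 44756 and 42571, against 23471, 19888 and 18556 (1.28, standard error 0.22). The groups were clear of each other, and the calls held without any of the libraries.

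As no transcript with a name was called lower, the falls are described by identifier. AGAP009877-RA, lost almost completely in intersexes, had 35.8, 9.64 and 81.2 normalized counts in dsxF-/- XX, against 13314, 10225 and 9097 in dsxF+/+ XX (log2 fold change -8.01, standard error 0.77, adjusted p = 0.00185 from edgeR). It had 0 counts in every male library. AGAP001200-RA had 0 counts in each intersex and each male library and 623.6, 243.3 and 979.3 in dsxF+/+ XX, at least 615-fold lower in dsxF-/- XX. The other transcript of that gene, AGAP001200-RB, had 581.3, 678.3 and 607.1 in dsxF-/- XX, against 202.1, 619.1 and 1163 in dsxF+/+ XX, so the groups overlapped for it, and the gene sum was not called (-1.04, standard error 0.34, adjusted p = 0.0695). Transcripts AGAP013481-RC and AGAP012867-RA each had 1 female library far above the others. AGAP013481-RC had 0 in each dsxF-/- XX library, against 23.8, 17 and 1130 in dsxF+/+ XX, and AGAP012867-RA had 0.00, 3.51 and 0.00 in dsxF-/- XX, against 1915, 102.2 and 8.05 in dsxF+/+ XX. Neither call held without dsxF-/- XX replicate 1, 2 or 3 or without the high female library (replicate 3 for AGAP013481-RC, replicate 1 for AGAP012867-RA), with an adjusted p of up to 0.112 and 0.137 from edgeR. The gene sum of AGAP013481 was 7323, 7716 and 10968 in dsxF-/- XX, against 58752, 21476 and 29296 in dsxF+/+ XX, and was called lower (-2.07, standard error 0.46, adjusted p = 0.0159), as were its transcripts AGAP013481-RA, AGAP013481-RB, AGAP013481-RD and AGAP013481-RG.

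**Figure D4:**
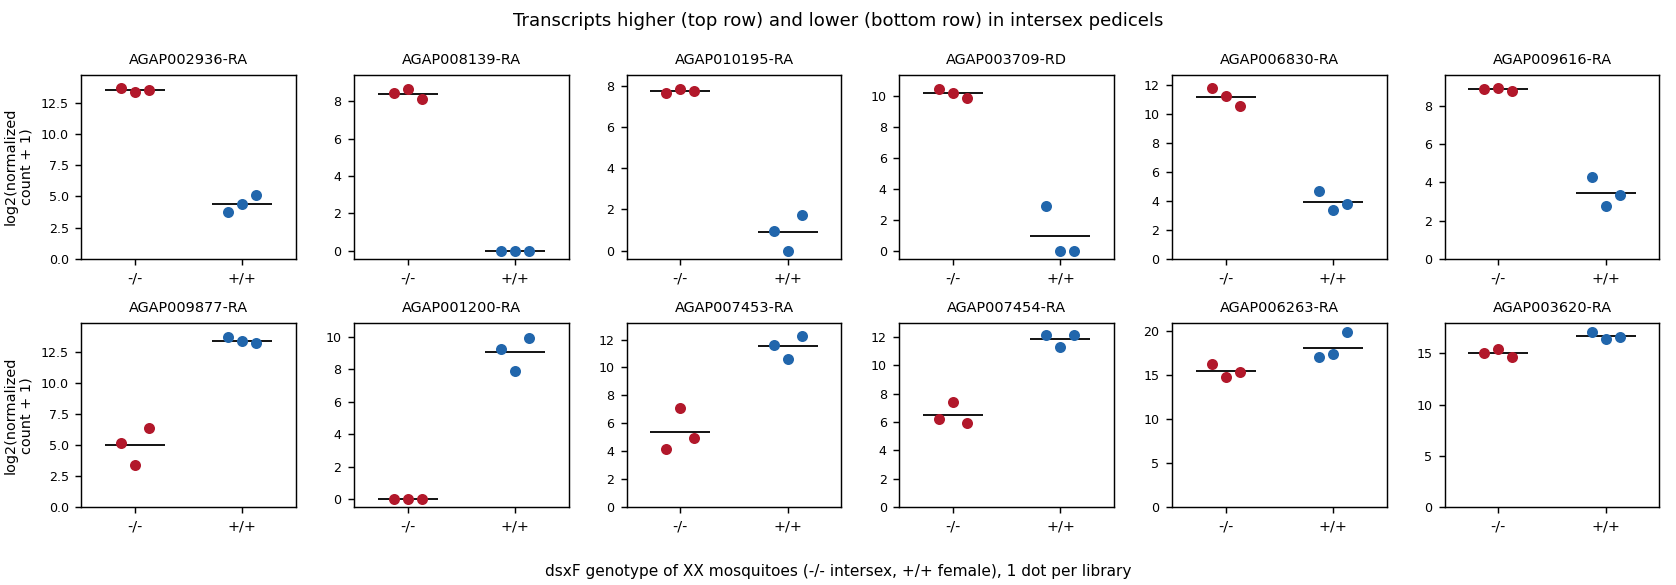
Each panel shows a transcript as log2(normalized count + 1), with 3 dsxF-/- XX libraries in red at the left, 3 dsxF+/+ XX libraries in blue at the right and a line at each mean. In the top row the red points lie above the blue ones and in the bottom row below them. AGAP008139-RA is at 0 in all females and AGAP001200-RA is at 0 in all intersexes.

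The most abundant falls were uneven among the females. AGAP006263-RA had 76024, 28847 and 42698 normalized counts in dsxF-/- XX, against 132366, 170822 and 924500 in dsxF+/+ XX (log2 fold change -3.06, standard error 0.80, adjusted p = 0.04 from edgeR). AGAP010134-RA had 19237, 6021 and 9894 in dsxF-/- XX, against 26617, 50782 and 186189 in dsxF+/+ XX (-2.91, standard error 0.78). Both were several times higher in dsxF+/+ XX replicate 3 than in the other females, and both calls were lost without that library or without any intersex library (adjusted p up to 0.134 and 0.148). AGAP003620-RA had 33000, 43620 and 25294 in dsxF-/- XX, against 142208, 83624 and 100491 in dsxF+/+ XX (-1.68, standard error 0.43), and its call held only without dsxF+/+ XX replicate 2 (adjusted p = 0.035, and up to 0.135 without the others). AGAP012331-RA had 15041, 18523 and 19160 in dsxF-/- XX, against 104267, 35757 and 70209 in dsxF+/+ XX (-2.00, standard error 0.40), and lost its call without any intersex library (adjusted p up to 0.0765). AGAP007406-RA was the steadiest, with 20516, 22180 and 22724 in dsxF-/- XX, against 60527, 46428 and 58664 in dsxF+/+ XX (-1.34, standard error 0.21), and its call held without any of the libraries.

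Some falls had consecutive identifiers, a pattern picked out after the values were seen. Gene sums were called lower in 15 runs of 3 or more consecutive numbers, which held 50 of the 985 gene sums called lower, and called higher in 3 runs, which held 9 of the 529 called higher. Of all gene sums tested 9.4% were called lower and 5.05% higher, and more calls give more runs. How many runs these shares give by themselves was not tested. Most falls lay outside such runs. Consecutive numbers mostly follow gene order in this annotation, but positions were not analysed here. The run AGAP007453 to AGAP007457 fell throughout. AGAP007454 had gene sums of 75.3, 167.0 and 58.5 in dsxF-/- XX, against 4462, 2571 and 4504 in dsxF+/+ XX (-5.25, standard error 0.45, adjusted p = 1.6e-04 from edgeR). AGAP007453 had 16.9, 137.3 and 29.7 in dsxF-/- XX, against 3129, 1599 and 4871 in dsxF+/+ XX (-5.68, standard error 0.80). AGAP007455 and AGAP007456 fell by 5.27 and 5.72 on the log2 scale (standard errors 0.46 and 0.59), and AGAP007457 by 1.59 (standard error 0.38). In each of the first 4 genes dsxF-/- XX replicate 2 was the highest intersex library, yet far below every female library. The 4 were near 0 in males, from 0.00 to 13.6. Their calls held without any of the libraries, whereas that of AGAP007457 was lost without dsxF-/- XX replicates 1 or 2 or dsxF+/+ XX replicate 3 (adjusted p up to 0.0942).

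The run AGAP000179 to AGAP000183 fell as well, and all 5 calls held without any of the libraries. AGAP000182 had gene sums of 237.3, 349.8 and 308.0 in dsxF-/- XX, against 1673, 1390 and 1413 in dsxF+/+ XX (log2 fold change -2.32, standard error 0.35, adjusted p = 0.00284 from edgeR). AGAP000179 fell by 2.60 (standard error 0.30), but none of its counts was a whole number, so its reads were shared with other transcripts by estimation. AGAP009877 was followed by AGAP009879 with 501.6, 779.2 and 471.0 in dsxF-/- XX, against 5762, 5430 and 3672 in dsxF+/+ XX (-3.08, standard error 0.32), and by AGAP009878, which fell by 2.78 (standard error 0.56). Among the rises, AGAP010785, AGAP010786 and AGAP010787 were higher by 1.65, 1.63 and 2.22 (standard errors 0.32, 0.23 and 0.19). AGAP010786 had 4107, 6049 and 5031 in dsxF-/- XX, against 2060, 1405 and 1425 in dsxF+/+ XX. Of the genes in such runs, 24 of the 50 falls and 6 of the 9 rises stayed called in each fit without 1 library.

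Summing the transcripts of a gene changed which features were called. Of 488 genes with a transcript called higher and none lower, 450 were also higher as sums and 38 were not. Of 802 genes with a transcript called lower and none higher, 731 were lower as sums, 70 were not called and 1 was not tested. A further 78 genes were higher and 254 lower only as sums, and 67 and 207 of these have 1 transcript, whose test differed only in the features fitted with it. The first by p of those with several transcripts not called on their own were AGAP029624, AGAP000320 (dynein intermediate chain) and AGAP002791 among the rises and AGAP000834, AGAP002238 and AGAP001964 among the falls. AGAP000834 had gene sums of 129.3, 186.3 and 109.4 in dsxF-/- XX, against 479.4, 523.6 and 758.7 in dsxF+/+ XX (log2 fold change -2.05, standard error 0.26, adjusted p = 0.00136 from edgeR), whereas the smallest adjusted p of its transcripts was 0.0902. AGAP000320 had 3382, 2944 and 3395 in dsxF-/- XX, against 1659, 2153 and 1705 in dsxF+/+ XX (0.82, standard error 0.18), and lost its call without dsxF-/- XX replicates 1 or 3 or dsxF+/+ XX replicate 3 (adjusted p up to 0.0741).

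In some genes a transcript was called higher and the gene sum was not. The calcium-activated potassium channel AGAP003709, a large-conductance channel that shapes the firing of excitable cells, had 2 called transcripts. AGAP003709-RD had 1389, 1170 and 958.1 normalized counts in dsxF-/- XX, against 6.40, 0.00 and 0.00 in dsxF+/+ XX (log2 fold change 8.92, standard error 0.86, adjusted p = 8.02e-04 from edgeR), and its call held without any of the libraries. AGAP003709-RC had 266.6, 85.0 and 49.3 in dsxF-/- XX and 0 in every dsxF+/+ XX library, at least 134-fold higher, and its call was lost without dsxF+/+ XX replicate 3 (adjusted p = 0.0534). The gene sum was 6687, 2488 and 3313 in dsxF-/- XX, against 1549, 7330 and 2838 in dsxF+/+ XX, with overlapping groups and a log2 fold change of 0.09 (standard error 0.68). The PH-sensitive chloride channel gene AGAP005599 had 2 called transcripts of 8. AGAP005599.R500 was at 3753, 3957 and 2703 in dsxF-/- XX, against 288.9, 514.0 and 57.5 in dsxF+/+ XX (3.59, standard error 0.66). AGAP005599.R502 rose by 3.37 (standard error 0.84) and lost its call without any intersex library or dsxF+/+ XX replicate 2 (adjusted p up to 0.0925), and the gene sum, at 2.03 (standard error 0.63, adjusted p = 0.0573), was not called. For the calcium channel beta subunit AGAP008028, transcript AGAP008028-RA rose by 2.02 (standard error 0.43), but not without dsxF-/- XX replicates 1 or 3 or dsxF+/+ XX replicates 1 or 3 (adjusted p up to 0.0603), and the gene sum (1.15, standard error 0.36, adjusted p = 0.0609) was not called. In both of these genes every intersex gene sum lay above every female one. The inward rectifier potassium channel AGAP001281 differed in sign: AGAP001281-RB was at 0.64 (standard error 0.18, adjusted p = 0.0555), AGAP001281-RA fell by 1.47 (standard error 0.30), and the gene sum fell by 0.75 (standard error 0.17).

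In 6 genes one transcript was called higher and another lower. AGAP029978.R817 had 635.1, 874.6 and 423.4 normalized counts in dsxF-/- XX, against 107.9, 145.8 and 60.9 in dsxF+/+ XX (log2 fold change 2.61, standard error 0.37), while AGAP029978.R815 had 1702, 1824 and 1670, against 3225, 4107 and 2918 (-0.98, standard error 0.18). AGAP029978.R817 made up 24% of the gene's mean count in dsxF-/- XX and 2.8% in dsxF+/+ XX. AGAP029403.R418 had 682.1, 766.8 and 382.8 in dsxF-/- XX, against 58.5, 189.3 and 195.4 in dsxF+/+ XX (2.05, standard error 0.46), and AGAP029403.R417 had 183.7, 109.5 and 206.9, against 364.8, 423.2 and 455.2 (-1.31, standard error 0.26). Here the leading transcript of the gene differed between the groups: R418 made up 69.3% in dsxF-/- XX and 21.5% in dsxF+/+ XX. In AGAP004179 transcript RA rose by 0.96 (standard error 0.23), and AGAP004179-RB, with 0.00, 1.75 and 1.93 in dsxF-/- XX, against 76.8, 34.1 and 20.7 in dsxF+/+ XX, fell by 4.97 (standard error 0.79).

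The gene sums of these 3 genes were not called (log2 fold changes -0.49, 0.35 and 0.07). In AGAP005585 the major transcript RB rose by 0.84 (standard error 0.18) and the minor RC fell by 4.03 (standard error 0.98), and in AGAP009447 RA rose by 1.06 (standard error 0.29) and RB fell by 1.61 (standard error 0.44). In AGAP002364, RB made up 63.3% of the gene in dsxF-/- XX and 34.8% in dsxF+/+ XX, with a gene sum log2 fold change of -0.04. Only AGAP029978.R817 and AGAP004179-RB of these 12 transcripts stayed called in every fit without 1 library, so an opposite pair was never called on both sides in all 6 (adjusted p of the others up to 0.18 from edgeR). Transcripts of a gene share sequence, and the division of reads between them is an estimate.

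**Figure D5:**
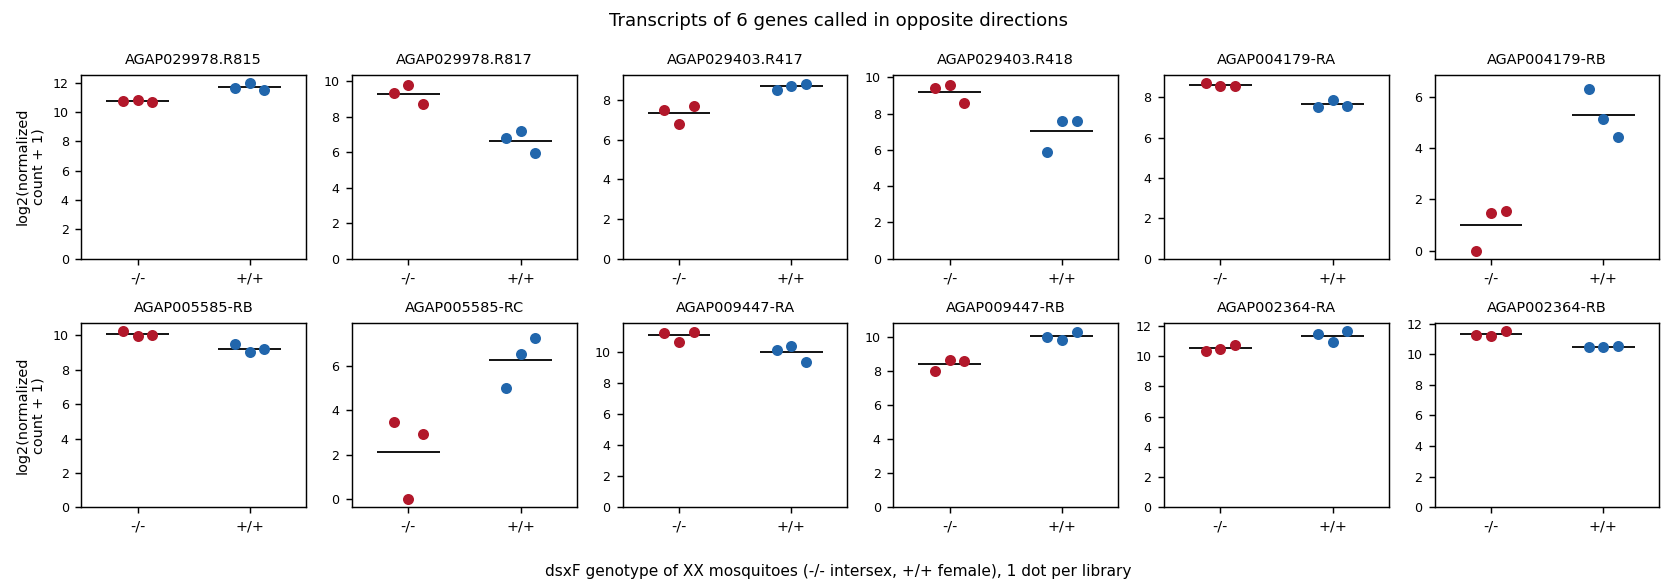
Each panel shows a transcript as log2(normalized count + 1) in the 3 dsxF-/- XX libraries (red, left) and the 3 dsxF+/+ XX libraries (blue, right), with a line at each mean, for the 12 transcripts of the 6 genes. Of each gene's pair, the red points lie above the blue ones in one panel and below them in the other.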

How the data were processed

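Libraries were made with a SMART-Seq v4 low-input kit. According to the authors, reads were checked with FastQC and MultiQC and quantified with kallisto against AgamP4.12 transcripts (versions of the tools not given in the sources used here). The deposited table holds estimated counts per transcript, which are not scaled for depth or length. After rounding, edgeR 4.0.16 (R 4.3.3) was run on them: filterByExpr by group, TMM scaling, 1 fit of the 9 libraries and the quasi-likelihood test of dsxF-/- XX minus dsxF+/+ XX, with Benjamini-Hochberg adjustment over all features of the fit (threshold 0.05). A normalized count is the count divided by its library's relative TMM-scaled size. Gene sums add the transcripts of an identifier before the fit. Standard errors were derived from the fold change and the F statistic. The common biological coefficient of variation was 36.0%, and the method was tested on simulated data. Every value column was assigned to a sample.

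The members and lists were chosen with earlier results of these data known. Named features were the 82 transcripts the study lists by name, the 10 largest called changes per direction with a name and the 4 without, at 5 CPM or more and with groups that do not overlap, up to 3 members of each keyword list by p, the 5 most abundant called transcripts per direction, up to 5 genes with opposite calls and up to 3 genes per direction called only as sums; others are said to be chosen after their values were seen, as was the sixth gene with opposite calls. Names come from the study's list, since the reference table matched 0 of 13845 gene identifiers. Of 32 keyword lists, 18 had no named member, among them sex determination and the markers of other tissues. Carry-over of other tissues, the identifier of doublesex and sequences were therefore not analysed here, so the genotype labels were not checked against the disrupted gene. The alternatives were DESeq2 1.42.0, limma-voom (limma 3.58.1), other samples in the fit, scaling and filters, blocks, a stricter threshold and each library left out in turn.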

Additional observations from a re-analysis of the deposited data

How the results depend on the processing

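With DESeq2 in place of edgeR 882 transcripts were called higher and 1468 lower, which included 516 and 849 of edgeR's calls. At an adjusted p under 0.01 edgeR kept 182 and 207 transcripts and 198 and 328 gene sums, higher and lower. Without each library in turn the calls ran from 223 to 914 transcripts higher, 244 to 1002 lower, 237 to 901 gene sums higher and 387 to 1249 lower; the most calls came without dsxF+/+ XX replicate 2. Limma-voom, a fit of only the 2 groups, median-of-ratios size factors and both filters kept these counts within 1.5 times, and no called transcript or gene sum turned its direction under any of the fits. Of the 65 named transcripts that were called, 34 stayed so without each library. Under each of the other settings that tested them, gene sums included, 21 stayed called. The filter of at least 10 counts in every library tested only 88 of the 108 named transcripts. With the replicate block and only the 2 groups, 35 of the 65 lost the call.

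Deviations from the group means of same-numbered dsxF-/- XX and dsxF+/+ XX libraries correlated at -0.279, -0.146 and 0.0936. With 3 libraries in each mean, these values cannot decide whether the replicate numbers pair the libraries. With a replicate block in the fit of all libraries 399 transcripts were called higher and 584 lower, with 516 and 852 gene sums. With the replicate block and only the 2 groups there were 105 and 219 transcripts and 232 and 643 gene sums. By these deviations only dsxF-/- XX replicate 3 correlated best with its own number. The column names end in sample-sheet numbers, which were cut here into consecutive runs of equal size. These runs are not a recorded batch. Same-numbered libraries of the 2 groups share such a run, so this block differs from the replicate block only in the males. With that run as a block in the fit of all libraries 481 and 697 transcripts were called. For 6 genes the gene sum and a named transcript had opposite signs and at least 1 of them was called. The transcripts were AGAP001281-RB (gene sum -0.75), AGAP004179-RB (0.07), AGAP005585-RC (0.64), AGAP009447-RA (-0.42), AGAP029403.R417 (0.35) and AGAP029978.R817 (-0.49). Opposite signs with neither called were not counted. AGAP002364-RB (0.83, gene sum -0.04), of a gene added after its values were seen, was not in this count. The filter left out 3687 transcripts with low counts, and whether depth or lack of expression keeps them low was not tested.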
